A study of Sus scrofa with 6 samples.

Results

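A set of 1009 chromatin regions was defined by its pattern of ATAC-seq peak calls in porcine (Sus scrofa) intestinal epithelial cells: each held a peak in all 3 control libraries and in exactly 1 or 2 of the 3 libraries from cells stimulated with deoxyshikonin. They were found by merging the peaks of the 6 deposited lists wherever these overlapped by at least 1 bp, which gave 51099 regions, and they made up 1.97% of all regions and 7.01% of the 14403 regions present in all 3 controls. They are called partly called regions here, and member regions in the plots. The called peaks themselves chose them, so every comparison of control with deoxyshikonin at these regions is a description and carries no test.

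The study compared 3 control libraries with 3 drug stimulated libraries, the drug being deoxyshikonin, a naphthoquinone pigment of the shikonin family. The labels give intestine epithelium as the tissue in both groups, no genetic change, and neither dose nor duration of stimulation. They do not say whether the cells were primary or an established line, or whether libraries came from separate cultures, so any spread between replicates may be technical. The labelled cell type could not be checked against marker genes, because the lists hold only contig positions.

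In ATAC-seq, the Tn5 transposase cuts DNA where nucleosomes and bound proteins leave it exposed and ties sequencing adapters to the cut ends. Reads therefore pile up at promoters, enhancers and other regulatory elements in use, and a peak caller marks stretches where the pileup exceeds a local background. A call is a threshold decision: an element just under the threshold in one library and just over it in another appears as absent and present. Epithelial cells of the intestine carry many such elements at genes of barrier function, transport and innate defence.

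The control lists held 17169 to 25888 peaks and the deoxyshikonin lists 33295 to 39281. Depth, taken as the mean tag pileup over the genome and solved from the deposited peak values, ranged from 1.89 to 2.57 in the controls and from 1.46 to 2.06 in the deoxyshikonin libraries. Control replicate 2 had the shortest control list, and deoxyshikonin replicate 2 had the shortest deoxyshikonin list and the lowest depth of the series. Positions refer to contigs whose names begin with LUXX01. No source at hand names the assembly, and no annotation of these contigs was used, so regions carry no gene, exon or sequence.

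Most partly called regions lacked only 1 deoxyshikonin call. Of the 1009, 682 (67.6%) held a peak in 2 deoxyshikonin libraries and 327 (32.4%) in 1. The commonest pattern, with 387 regions (38.4%), was a peak in deoxyshikonin replicates 1 and 3 and none in replicate 2. Another 205 regions lacked only replicate 1 and 90 lacked only replicate 3. Among the regions with a single deoxyshikonin call, 189 had it in replicate 3, 95 in replicate 1 and 43 in replicate 2.

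**Figure D1:**
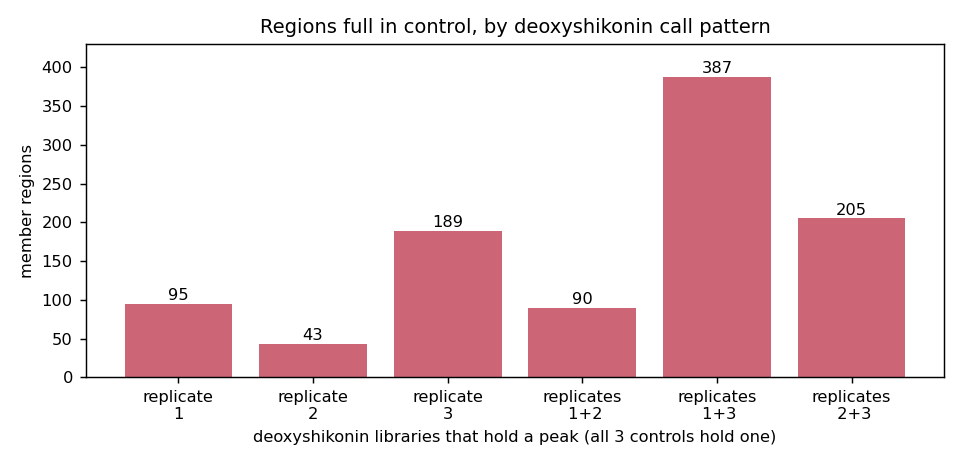
Number of partly called regions (vertical axis) by which deoxyshikonin libraries held a peak (horizontal axis); all 3 controls held one in every case. The bar for replicates 1 and 3 is the tallest with 387 regions, and the bar for replicate 2 alone the lowest with 43.

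The missing calls were therefore unevenly spread over the 3 deoxyshikonin libraries. Replicate 2 had no peak in 671 of the partly called regions (66.5%), replicate 1 in 437 (43.3%) and replicate 3 in 228 (22.6%). This order runs from the shortest to the longest deoxyshikonin list, with 33295, 35784 and 39281 peaks. Over all 51099 regions replicate 2 also had the fewest calls, at 32473, against 35158 in replicate 1 and 38306 in replicate 3. The order of the libraries was thus not particular to the partly called regions. Depth followed a different order, at 1.46 in replicate 2, 2.06 in replicate 1 and 1.96 in replicate 3. The part of list length or depth in the missing calls was not tested. Without deoxyshikonin replicate 2, a peak in all 3 controls and in exactly 1 of the other 2 deoxyshikonin lists was found in 585 regions. Without control replicate 2, when only 2 controls had to hold a peak, the number was 2309.

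The partly called regions stood low in the control lists. Percentiles here rank the −log10 q of each peak within its own list, with 100 as the best peak. The median partly called peak stood at the 34.6, 29.7 and 43.2 percentile in control replicates 1 to 3, against 67.9, 59.9 and 73.7 for regions present in all 6 libraries. All 3 controls placed them below the midpoint of the list. The mirror pattern, with peaks in 1 or 2 controls and in every deoxyshikonin library, also stood low in the controls. Its called peaks had medians of 28.2, 19.1 and 31.8 in control replicates 1 to 3. Averaged over the 3 controls, the median percentile of the partly called regions was 34.5, with the middle 50% of them between 23.8 and 49.1. Only 36 of the 1009 averaged above the 75 percentile and 4 above the 90 percentile, and 37 averaged under the 10 percentile.

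Control rank differed with the number of deoxyshikonin calls. Among the regions present in all 3 controls, the median control percentile was 29.9 for the 185 with no deoxyshikonin peak, 30.9 for those with 1, 37.3 for those with 2 and 65.8 for the 13209 with 3. The step on the inside of the rule, from 1 call to 2, was thus small beside the step from 2 calls to 3, where the rule ends. These classes were set by the calls, which are threshold decisions, so nothing is read from this order. The part of peak strength in the missing calls was not tested.

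**Figure D2:**
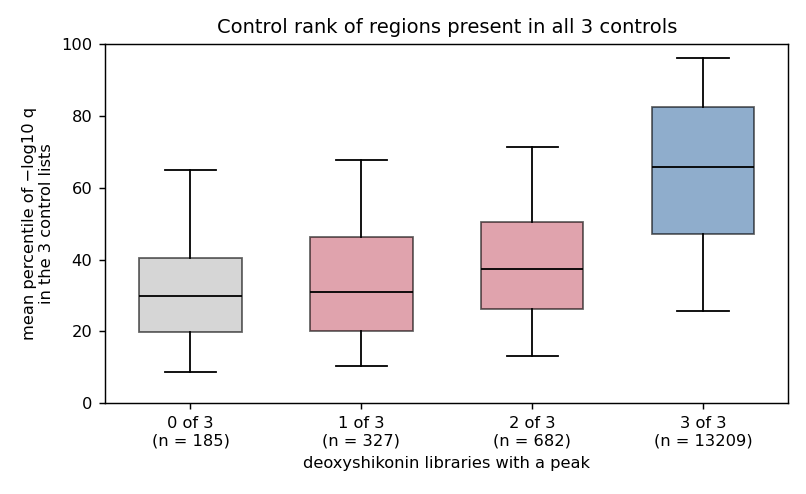
Mean percentile of −log10 q in the 3 control lists (vertical axis) for regions present in all 3 controls, by number of deoxyshikonin libraries with a peak (horizontal axis). Boxes span the middle 50% with the median as a line, and whiskers reach the 5 and 95 percentiles of regions; medians are 29.9, 30.9, 37.3 and 65.8.

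In every library the called peaks were narrower than at regions present in all 6 libraries. Their median width was 315, 277 and 375 bp in control replicates 1 to 3, against 526, 439 and 629 bp at regions present in all 6 libraries. Where a deoxyshikonin peak was called, its median width was 322.5, 264 and 297 bp in replicates 1 to 3, against 646, 574 and 597 bp at regions present in all 6. At the mirror pattern the median width was 288, 253.5 and 325 bp in the called peaks of control replicates 1 to 3. It was 419, 375 and 407 bp in deoxyshikonin replicates 1 to 3. The 185 regions with peaks in all 3 controls and no deoxyshikonin library had 267, 265 and 327 bp in the controls. Narrow control peaks were thus not particular to the partly called regions. No list held a peak under 200 bp.

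Enrichment at the called peaks was modest in both groups. The authors' fold enrichment is the summit pileup over the peak caller's local background, with 1 added to each. Its median at the partly called regions was 5.09, 4.72 and 5.14 in control replicates 1 to 3 and 4.58, 4.88 and 4.87 in the called peaks of deoxyshikonin replicates 1 to 3. At regions present in all 6 libraries the controls had medians of 6.58, 5.69 and 6.75, and the deoxyshikonin libraries 6.42, 6.80 and 7.0. The partly called regions were lower than those regions in all 6 lists, while the 2 groups overlapped at the partly called regions themselves. The called control peaks of the mirror pattern had 4.91, 4.47 and 4.71, and its deoxyshikonin peaks 5.11, 5.47 and 5.59. The 185 regions with no deoxyshikonin peak had 4.85, 4.75 and 4.73 in the controls.

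Where a deoxyshikonin peak was called, it was usually lower than the control peaks, relative to other peaks of its library. Height was taken as the summit pileup over the library's mean pileup. On the log2 scale, centred on each library's median over regions present in all 6 libraries, median height at the partly called regions was −0.58, −0.47 and −0.60 in control replicates 1 to 3. It was −0.85, −0.87 and −0.79 in the called peaks of deoxyshikonin replicates 1 to 3, below all 3 controls. The median difference, mean of the called deoxyshikonin peaks minus mean of the 3 controls, was −0.29 on the log2 scale, and it was negative in 839 of 1009 regions (83.2%). It was negative in 55.8% of all regions with a peak in all 3 controls and at least 1 deoxyshikonin call, and in 53.7% of those present in all 6 libraries. Per library it was −0.25 in replicate 1 (572 peaks), −0.28 in replicate 2 (338 peaks) and −0.30 in replicate 3 (781 peaks).

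This difference depended on how libraries were scaled and on list length. In lists cut to equal length, where 216 of the 1009 regions remained among 2396 that met the rule, the median over the 2396 was −0.029. Scaling by depth alone left a median of −0.027 on the log2 scale at the partly called regions, with 552 of 1009 (54.7%) negative against 17.7% of regions present in all 6 libraries, while the regions present in all 6 libraries stood at 0.25 on that scale. With the authors' fold enrichment in place of height, centred the same way, the median was −0.18. The sign was negative under all 3 scalings in 523 regions (51.8%) and positive under all 3 in 122 (12.1%), against 17.1% and 35.0% of the regions present in all 6 libraries. Deoxyshikonin libraries that lacked a call gave no height and do not enter these differences.

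**Figure D3:**
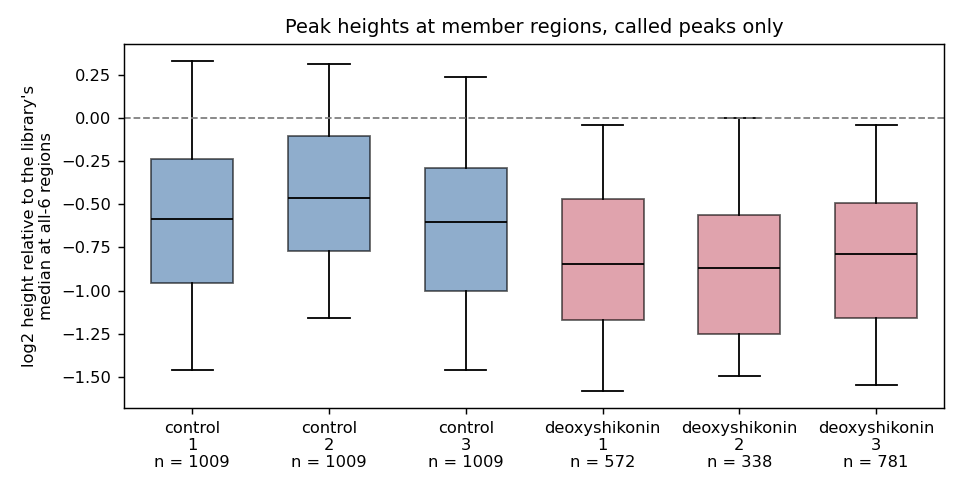
Log2 height of called peaks at the partly called regions (vertical axis), relative to the library's median at regions present in all 6 libraries (dashed line at 0), for the 6 libraries (horizontal axis, with the number of called peaks). Boxes span the middle 50%, and whiskers the 5 to 95 percentiles of regions; medians are −0.47 to −0.60 in the controls and −0.79 to −0.87 under deoxyshikonin.

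At many of the regions the called heights of the groups did not overlap. Every called deoxyshikonin height was below every control height in 498 of the 1009 regions (49.4%) after centring, 204 of the 327 with 1 call and 294 of the 682 with 2. The same held for 17.9% of all 14218 regions present in all 3 controls with at least 1 deoxyshikonin call, and for 15.6% of those present in all 6. A single value is more easily below 3 controls than 2 or 3 values are, and the rule used this contrast, so nothing is read from the excess. The reverse, every called deoxyshikonin height above every control, was found in 33 regions (3.27%), against 12.8% of the 14218. With scaling by depth alone the counts were 226 below (background 4.11%) and 164 above (background 27.9%).

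The heights of the controls were set against the limit of calling in the libraries that lacked a peak. For each of the 1336 missing calls, the smallest callable pileup was computed from the lowest p in that library's list and the local background, taken from the controls. A peak of the mean control height, centred, would have reached a median of 1.92 times that pileup (middle 50% 1.72 to 2.19) and fell under it for 0 of 1336. With scaling by depth alone the median was 1.56, with 2 of 1336 under the limit, both in deoxyshikonin replicate 2. The same ratio was 1.98 for the 1691 deoxyshikonin calls that were made at these regions, after centring, and 2.58 at regions present in all 6 libraries. Every region supplied both missing and made calls with the same control heights, so these 2 ratios had to be close and nothing is read from their likeness. The ratio covers summit height only: a call also needs a stretch of at least the minimum width, and a call in all 3 controls favours high control values. Every control peak had passed a limit of this kind in its own library, so a low count under the limit was favoured in advance. Centring moved the height to the scale of the missing library, but the background stayed at its control ratio to depth.

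The called deoxyshikonin peaks were compared with the same limit. Their pileup was a median 1.58, 1.55 and 1.69 times the smallest callable one in deoxyshikonin replicates 1 to 3, against 2.4, 2.38 and 2.6 at regions present in all 6 libraries. The control peaks of the partly called regions stood at 1.71, 1.55 and 1.83 times the limit in control replicates 1 to 3. The ratio of control replicate 2 equalled the lowest of the deoxyshikonin libraries.

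Peaks beside the region were also counted for the missing calls. The library that lacked a call had a peak within 500 bp of the region in 94 of 1336 cases (7.04%) and within 200 bp in 30 (2.25%). The share within 500 bp was 51.3% both when presence meant coverage of 50% of the region and when regions were built from summit windows, where a library's own partial peak can count as beside the region. In 356 cases (26.6%) that library had no peak anywhere on the contig. For the 239 regions that were the only region of their contig, a missing call means this by definition, so nothing is read from this count. Where calls were made, 1639 of 1691 deoxyshikonin peaks (96.9%) overlapped the peaks of all 3 controls directly, and 1 overlapped none of them and was joined through another library's peak.

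Summits of the 2 groups coincided about as closely as those of the controls among themselves. The median distance between a deoxyshikonin and a control summit in the same partly called region was 43 bp over 5073 pairs. Between 2 controls it was 37 bp over 3027 pairs, and between 2 deoxyshikonin libraries 44 bp over 682 pairs. At regions present in all 6 libraries the corresponding distances were 37, 31 and 37 bp. Pairs share libraries and regions, so they carry no test.

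Many of the partly called regions lay on contigs with hardly any other region. On contigs with at most 2 regions lay 264 of 1009 (26.2%, exact Clopper-Pearson 95% interval 23.5% to 29.0%, which covers counting error only), and 239 were the only region of their contig. The share was 7.35% for regions present in all 6 libraries (interval 6.91% to 7.81%). It was 33.0% for the 185 regions with no deoxyshikonin call, and 2.94% for the 5679 regions of the mirror pattern, which had peaks in 1 or 2 controls and in every deoxyshikonin library. The partly called regions thus stood beside the control-only regions and far from the mirror pattern. Without control replicate 2 the share was 14.7%, in lists of equal length 9.97% and with summit windows 13.4%. The interval treats regions as independent, which they are not, and it does not cover this spread between settings.

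Most regions on such contigs had low positions. Contig lengths were not used, so a low position cannot be told apart from a short contig. The median end position of the 264 was base 537 and the highest base 1204927, 79 of them began within the first 20 bp of their contig and 55 at its first base. Of the regions present in all 6 libraries on such contigs, 444 of 971 began at the first base. The local background equalled the genome mean in all 3 controls at 236 of the 264 (89.4%), against 33 of the 745 on other contigs (4.43%). Fold enrichment at these 236 is thus measured against the lowest background that the peak caller allows. Among the regions present in all 6 libraries, this held at 573 of the 971 on such contigs (59.0%). On other contigs it held at 153 of the 12238 (1.25%).

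The height difference on region-poor contigs was present in regions of both kinds. On contigs with at most 2 regions the median centred difference was −0.37 on the log2 scale at the partly called regions and −0.35 at the 971 regions present in all 6 libraries. On other contigs it was −0.26 at the 745 partly called regions and −0.0091 at the 12238 present in all 6. With scaling by depth alone the 4 medians were −0.13, −0.073, −0.0090 and 0.27, in the same order. On region-poor contigs the 2 classes thus had similar medians, while on other contigs the partly called regions were lower under both scalings. Why region-poor contigs differed was not tested. The median control percentile of the partly called regions was 35.1 on region-poor contigs and 34.4 on other contigs. For the regions present in all 6 libraries it was 79.9 and 64.8, in the same order.

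**Figure D4:**
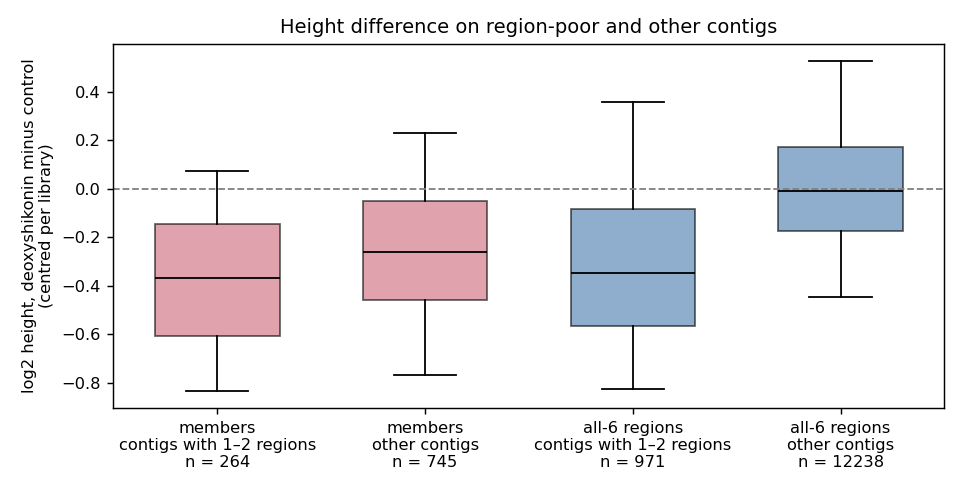
Centred log2 height difference, deoxyshikonin minus control (vertical axis), for partly called regions and regions present in all 6 libraries, on contigs with 1 or 2 regions and on other contigs (horizontal axis, with n regions). Boxes span the middle 50%, whiskers the 5 to 95 percentiles of regions; medians are −0.37, −0.26, −0.35 and −0.0091 from left to right.

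The strongest partly called regions were all on contigs that held no other region. They are the 5 regions with 1 deoxyshikonin call and the 5 with 2 that had the highest mean control percentile. The authors' fold enrichment is given for each library, and n is 3 controls.

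The region with the best control rank lay on LUXX01005358.1 at 17 to 294, where enrichment was 16.3, 15.3 and 14.3 in control replicates 1 to 3 (mean 15.3 ± 0.990 SD, n = 3). It was 7.31 in deoxyshikonin replicate 2 and 11.1 in replicate 3, and replicate 1 had no call. Both deoxyshikonin values were below all controls, and the centred control height was 5.48 times the smallest pileup that the missing library could call. On LUXX01075215.1 at 1 to 263 the controls had 12.5, 14.7 and 12.3, and deoxyshikonin replicates 1 and 3 had 7.20 and 10.8. On LUXX01068073.1 at 1 to 210 the controls had 11.4, 13.1 and 12.3 against 5.89 and 8.78 in deoxyshikonin replicates 1 and 3. In each of these 3 regions the lowest control exceeded the highest deoxyshikonin value, a direction that choosing by high control rank favours.

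LUXX01047901.1 at 1 to 208 followed the same order, with 10.7, 10.8 and 12.6 in the controls and 6.91 and 9.80 in deoxyshikonin replicates 2 and 3. LUXX01042466.1 at 138 to 407 did not: its controls had 11.1, 11.5 and 9.53, and deoxyshikonin replicates 2 and 3 had 10.6 and 7.77, so the groups overlapped. Deoxyshikonin replicate 1 was the missing library in 3 of these 5 regions.

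Of the 5 strongest regions with a single deoxyshikonin call, 4 had it in replicate 3 and 1 in replicate 2. LUXX01047920.1 at 1 to 284 had 11.8, 13.4 and 11.8 in control replicates 1 to 3 and 8.45 in deoxyshikonin replicate 3. LUXX01015815.1 at 139 to 396 had 10.7, 11.8 and 10.7 in the controls and 8.11 in that replicate. LUXX01094337.1 at 322 to 627 had 10.4, 10.5 and 9.53 in the controls and 7.43 there. The single deoxyshikonin value was below every control in these 3 regions. Choosing by high control rank favours this direction at all 5 regions. On centred height it held in 204 of all 327 regions with 1 call (62.4%), so nothing is read from it.

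LUXX01100304.1 at 49 to 333 was called in deoxyshikonin replicate 2 at 8.13, below its control values of 9.70, 12.1 and 11.8. LUXX01045961.1 at 43 to 459 was the exception of the 5: deoxyshikonin replicate 3 had 10.1, inside the control range of 9.70, 11.8 and 9.81, and its height difference of −0.27 on the log2 scale was 0.0063 with scaling by depth alone.

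**Figure D5:**
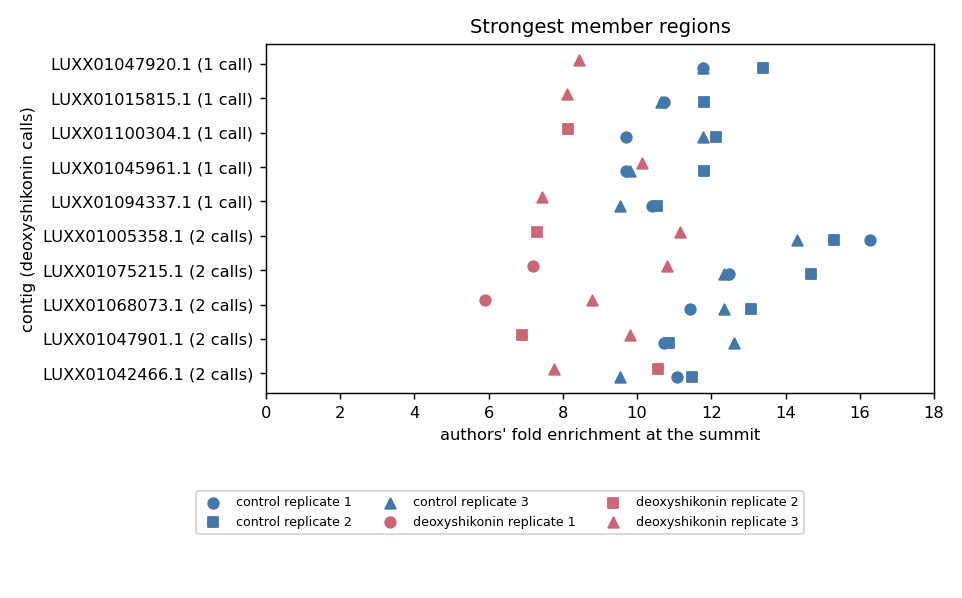
Authors' fold enrichment at the summit (horizontal axis) in each library for the 10 strongest partly called regions (vertical axis, named by contig with the number of deoxyshikonin calls). Control values lie between 9.53 and 16.3 and deoxyshikonin values between 5.89 and 11.1; a deoxyshikonin library without a point had no peak.

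The most negative height differences among regions with 2 deoxyshikonin calls were on contigs with 4, 38 and 123 regions. On LUXX01082796.1 at 778 to 1205 fold enrichment was 10.5, 7.47 and 7.67 in the controls and 5.56 and 6.85 in deoxyshikonin replicates 1 and 3, with a centred height difference of −1.21 on the log2 scale. It lay 872 bp from a region present in all 6 libraries. On LUXX01058098.1 at 750392 to 751152 the controls had 7.56, 6.0 and 7.05, and deoxyshikonin replicates 1 and 3 had 3.59 and 4.26, with a difference of −1.18. A region present in all 6 libraries lay only 110 bp away, and deoxyshikonin replicate 2, which had no call, had a peak 288 bp away. On LUXX01059176.1 at 5899926 to 5900440 the controls had 8.30, 5.61 and 6.66 and deoxyshikonin replicates 1 and 2 had 4.57 and 4.26, with a difference of −1.17. In all 3 regions the deoxyshikonin values were below every control, and the sign was the same under each scaling. Choosing the most negative differences favours both, so nothing is read from them.

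Among regions with 2 deoxyshikonin calls, the 3 most positive height differences were at regions with a mean control percentile of 1.98, 4.67 and 20.3. The weakest in the controls, on LUXX01036478.1 at 40 to 753, was also the one with the most positive of these differences, 0.63 on the log2 scale. Its fold enrichment was 4.16, 4.15 and 3.64 in the controls, at the 2.59, 2.67 and 0.682 percentile, and 5.56 and 8.11 in deoxyshikonin replicates 1 and 3, at the 37.7 and 70.4 percentile. Deoxyshikonin replicate 2 had no call there, so the region counts as partly called. The called values were above every control, a direction that choosing the most positive differences favours. LUXX01070105.1 at 2028366 to 2028848 had a height difference of 0.57, but its groups overlapped: fold enrichment was 3.64, 4.09 and 3.31 in the controls and 3.28 and 4.52 in deoxyshikonin replicates 1 and 3, which gave −0.014 on the centred fold enrichment scale. LUXX01008969.1 at 27976 to 28287 had a difference of 0.52, with 5.11, 3.79 and 5.18 in the controls and 5.23 and 4.85 in deoxyshikonin replicates 1 and 3. Its centred heights did not overlap between groups, but its fold enrichments did.

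The next weakest 2 in the controls had higher fold enrichments where called under deoxyshikonin. LUXX01044307.1 at 1083 to 1897 had 3.95, 3.66 and 3.67 in the controls and 4.72 and 5.03 in deoxyshikonin replicates 1 and 3, while its centred heights overlapped between the groups. LUXX01086772.1 at 42 to 540 had 4.16, 4.15 and 4.21 in the controls and 5.24 in deoxyshikonin replicate 1, its single call. Choosing regions by low control rank favours this direction.

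The 3 widest partly called regions spanned 1741 to 1823 bp, each as the only region of its contig. On LUXX01011041.1 at 313 to 2135 the control peaks were 714, 524 and 1485 bp wide and the deoxyshikonin peaks 269 and 330 bp. On LUXX01026815.1 at 78 to 1865 they were 632, 320 and 835 bp against 504 and 202 bp. On LUXX01037885.1 at 118 to 1858 they were 467, 557 and 1472 bp against 336 and 724 bp. In all 3, control replicate 3, the deepest library, held the widest peak. Choosing the widest regions favours a wide peak in some library. Over all partly called regions, control replicate 3 also had the widest median control peak, 375 bp against 315 and 277 bp. The part of depth was not tested.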

How the data were processed

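Chromatin of lysed cells was cut with Tn5 and the libraries were size-selected for short fragments, per the labels' protocols. Peak calling with MACS2 2.1.0 and alignment with Bowtie2 2.4.2 are named in the submitters' processing notes, beside Trim Galore 0.6.6, bcl2fastq 2.17 and deepTools; no settings or genome build were found there. The authors deposited 1 peak list per library, which gives each peak a score, its −log10 q and −log10 p, and a fold enrichment (a ratio). From each pair of fold enrichment and p, the summit pileup and local background were solved (pileup + 1 over background + 1, Poisson tail), which succeeded for 100% of peaks at a tolerance of 0.0001. This rests on the usual form of the peak caller's values. The solver and the merging were tested on simulated peaks. The lowest background of a list served as its depth. Total read numbers are unknown.

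Within a region the peak with the best q stood for its library. No test was run, since the rule used the only contrast of the study. The members, their number and the regions named (highest and lowest mean control percentile, most negative and most positive height difference with 2 calls, widest, and the contigs with most members) were chosen by rules set with earlier results of these data known. Samples were grouped by their titles. Correlations of deviations in presence were −0.000286 to 0.0146 for same-numbered libraries of the groups and −0.0134 to 0.0114 for differently numbered ones. These values cannot settle whether same-numbered libraries were paired. Computation used scipy 1.17.1, pandas 2.3.3 and numpy 2.4.6 under Python 3.11.15, with plots by matplotlib 3.10.9.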

Additional observations from a re-analysis of the deposited data

How the results depend on the processing

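The alternatives that drop region-poor contigs or both libraries numbered 2 were added after seeing the data. The 1009 regions became 1014 with −log10 q of at least 5, 1183 with 50% coverage as presence, 2396 in lists of equal length (17169 peaks each) and 1944 with summit windows, and 585 to 2309 when 1 library was left out. Of the 1009, 685, 602, 216 and 895 remained under the first 4 of these, in that order; equal lists drop weak peaks of the longer lists by construction. The median height difference (−0.29) stayed negative under every alternative run: −0.26 with the stricter q, −0.029 in equal lists, −0.21 with coverage, −0.14 with summit windows, −0.027 by depth alone, −0.18 with fold enrichment, −0.26 with the replicate block, −0.17 without both libraries numbered 2, and −0.31 to −0.19 without 1 library. The share on contigs with at most 2 regions (26.2%) was 9.97% in equal lists, 23.4% with coverage, 13.4% with summit windows, 29.5% for at most 5 regions, 14.2% without both libraries numbered 2 and 14.7% to 27.5% without 1 library. The share within 10 kb of a region present in all libraries (23.1%) was 15.0%, 13.1% and 17.2% in equal lists, with coverage and with summit windows, 51.9% within 50 kb, 30.5% without region-poor contigs, 31.8% without both libraries numbered 2 and 22.5% to 29.5% without 1 library. The median control percentile (34.5) was 42.0, 51.2, 47.8 and 46.9 with the stricter q, equal lists, coverage and summit windows, where percentiles still refer to full lists, and 31.2 to 35.4 without 1 library. The median control width (335 bp) was 430.5, 416 and 437 bp with equal lists, coverage and summit windows, and 301 to 338 bp without 1 library. The share of missing calls with a peak within 500 bp (7.04%) was 2.09% in equal lists, 51.3% with coverage and 51.3% with summit windows, where a library's own partial peak can lie in or beside the region, 2.25% within 200 bp, 18.8% within 2000 bp, 8.99% without region-poor contigs and 6.72% to 9.32% without 1 library. Missing calls per library were 37.9% in deoxyshikonin replicate 1 with coverage, 51.1% and 56.0% in replicate 2 in equal lists and with summit windows, and 19.6%, 40.9%, 25.8% and 27.2% in replicate 3 with the stricter q, equal lists, coverage and summit windows; replicate 2 lacked most calls in each. Signs turned at LUXX01045961.1 (0.0063 by depth alone) and LUXX01070105.1 (−0.014 with fold enrichment). Unless stated, the cause was not tested. A missing call shows only that no peak passed at that library's depth.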

Other observations

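The 1009 regions were scattered. They lay on 710 of the 4046 contigs that held any region, 535 of which had 1 such region, 103 had 2 and 72 had 3 or more. The most on any contig was 7, on LUXX01073936.1 (of 194 regions, 53 of them present in all 6 libraries) and on LUXX01095453.1 (of 85 regions, 31 present in all 6). On the 257 contigs with at least 60 regions they made up 1.62% of regions, and 62 of these contigs had none.

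Counted over all contigs, the share near a region present in all 6 libraries compared differently at short and long range. Such a region lay within 1 kb of 62 of the 1009 (6.14%), against 2.35% of the regions present in all 6, measured to the next of their kind, 3.38% of the mirror pattern and 6.49% of the control-only regions. Within 10 kb the shares were 23.1%, 18.4%, 18.7% and 23.8%, in the same order. Within 50 kb the partly called regions were below both the regions present in all 6 and the mirror pattern, with 51.9% of the partly called regions, 58.4% of those present in all 6, 56.8% of the mirror pattern and 47.6% of the control-only regions. A region with no region present in all 6 libraries elsewhere on its contig counts as far. This held for 280 of the 1009 and for 1132 of the 13209 present in all 6. It also held for 260 of the 5679 of the mirror pattern and 66 of the 185 control-only regions. On contigs with more than 2 regions, 30.5% of the partly called regions had one within 10 kb, against 19.7% of the regions present in all 6. Within 50 kb the shares on those contigs were 69.4% and 62.8%, so the order did not turn there. Another partly called region lay within 10 kb of 38 (3.77%). These shares are descriptions over regions, which are not independent replicates.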
